A study of Mus musculus with 6 samples.

Results

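The genes described here encode the subunits of the proteasome, and they were read from the gastrocnemius muscle, a fast calf muscle, of dysferlin-deficient and control mice. The series holds RNA-seq libraries of 3 homozygous B6.A-Dysfprmd/GeneJ mice (the BLAJ line, genotype Dysfprmd/Dysfprmd, 2 females and 1 male) and of 3 wild-type C57BL/6 mice (all male). All 6 animals were 3 months old and untreated, and each animal was a separate replicate per the labels. The Dysfprmd mutation is a germline allele, so every cell type of the mutant carries it, and the samples are whole muscle and not isolated fibres. Members were the genes with a mouse symbol of the Psma, Psmb, Psmc or Psmd series or of Psme1 to Psme4 and a summed count of at least 60 over the 6 libraries, except 1 beta subunit gene that is not analysed here. This gave 40 genes of the 57010 in the count table, and all 40 passed the filter on low counts. The member nearest to the threshold was Psmb9 with a summed count of 765, and the 2 genes below it were the testis subunit Psma8 with 12 and the thymus subunit Psmb11 with 5.

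The proteasome is the barrel-shaped protease that degrades proteins tagged with ubiquitin. Its core particle is built of stacked alpha and beta rings, with the proteolytic sites on beta subunits inside the barrel, and its regulatory particle caps the barrel with a ring of ATPases and a lid that bind, unfold and deubiquitinate the substrate. Interferon-gamma induces alternative catalytic beta subunits, which form the immunoproteasome, and in muscle the ubiquitin-proteasome pathway carries out much of the protein loss of atrophy. Dysferlin, the protein missing in the mutants, takes part in resealing the sarcolemma.

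The read pairs counted on genes numbered 35042245 to 40230648 in mutants and 40367595 to 43733641 in controls. The 40 genes took 0.381% to 0.443% of them in mutants and 0.439% to 0.559% in controls. Levels are given as CPM, the usual depth-normalised read count, with library sizes scaled by TMM factors. Dysf stood at 15.8, 14.7 and 20.3 CPM in the mutants, against 72.3, 99.8 and 145 CPM in the controls (log2 fold change -2.64, SE 0.28, edgeR adjusted p = 0.0249). H2-Ea-ps, which C57BL/6 mice do not express, had 1, 0 and 0 counts in mutant replicates 1, 2 and 3 and 95, 152 and 123 counts in control replicates 1, 2 and 3, which goes against the C57BL/6 label of the controls. Ifi202b, another strain marker, had 0 counts in every mutant and 308, 45 and 103 in the controls. The strain marker Nnt was low in both groups, with 7, 13 and 16 counts in mutants and 5, 6 and 4 in controls. Strain, sex (mutant replicates 1 and 2 were female) and loss of dysferlin cannot be told apart in the differences below. The tissue label was checked against markers: 8 genes of the muscle fibre summed to 123715 to 152499 CPM in mutants and 121191 to 158266 CPM in controls. In whole muscle, fewer cells of a type and less RNA per cell cannot be told apart.

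Transcripts of the proteasome lay slightly below the control level in the mutants across most of the complex, and no single gene passed the main test. Of the 40 genes, 34 were lower and 6 higher, whereas 50.2% of all 15589 genes tested were lower. The median log2 fold change (mutant minus control) was -0.18 for the 40 genes and -0.0015 for all genes tested. No member was called by edgeR's quasi-likelihood test with Benjamini-Hochberg adjustment over all genes (adjusted p below 0.05), where 0.199% of all genes were called (0.186% lower and 0.0128% higher). DESeq2 called 1 member, the lid subunit Psmd8, against 1.18% of all genes. At an unadjusted edgeR p below 0.05 there were 5 members, or 12.5%, against 6.94% of all genes: Psmd8, Psmd12, Psmd14 and the beta subunit Psmb1 were lower (3.69% of all genes were so), and the assembly chaperone Psmd9 was higher (3.25%). DESeq2 also placed 5 of the 40 members below an unadjusted p of 0.05, and 1167 of all 15589 genes.

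Every mutant library lay below every control library in 11 members, or 27.5%, against 6.09% of all genes. The 11 were Psma6, Psma7, Psmb1, Psmb7, Psmc1, Psmc6, Psmd5, Psmd8, Psmd11, Psmd12 and Psmd14. Every mutant library lay above every control library in 2 members, Psmd9 and Psme2, against 5.97% of all genes. The 95% interval of the fold change included 0 in 35 members, and in 21 of the 40 it lay wholly within a fold of 1.5 in either direction, as it did for 33.1% of all genes.

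**Figure D1:**
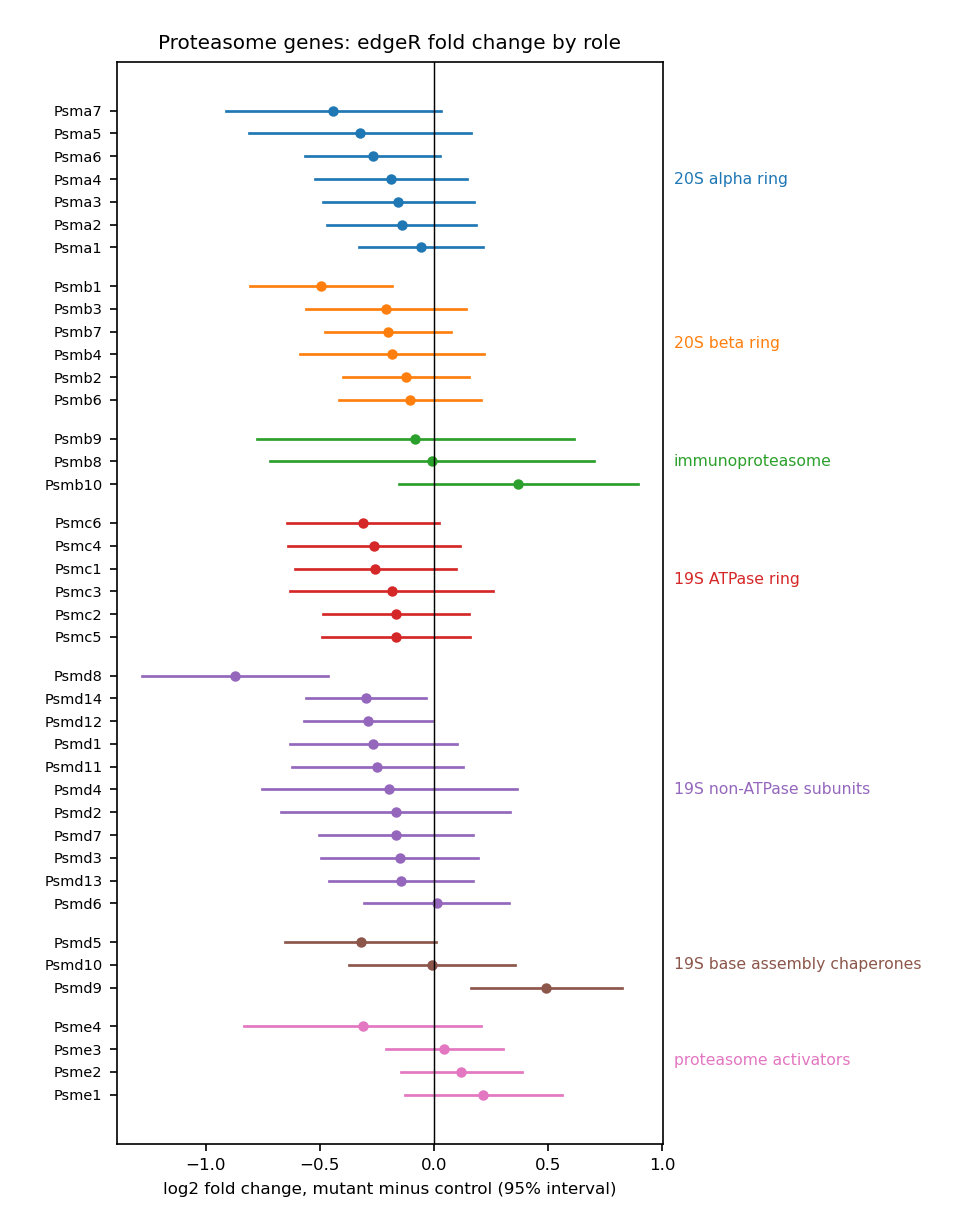
Log2 fold change, mutant minus control, of the 40 proteasome genes with its 95% interval from the edgeR fit (n = 3 libraries each), grouped by role. Most points lie a little left of 0, Psmd8 lies furthest to the left at -0.87 and Psmd9 furthest to the right at 0.49.

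The difference between the groups rested in part on 1 control. Control replicate 2 had the highest level of the 6 libraries in 29 of the 40 members, or 72.5%, against 19.8% of all genes tested, and mutant replicate 3 the lowest in 22, where it was the lowest for 15.6% of all genes. The median member stood 0.25 above its own mean over the 6 libraries (log2 CPM) in control replicate 2. In the other libraries it stood at -0.02, -0.09 and -0.15 in mutant replicates 1, 2 and 3, and at -0.0029 and -0.00041 in control replicates 1 and 3. Mutant replicate 1 thus lay close to control replicates 1 and 3, and mutant replicates 2 and 3 below them. Without control replicate 2 the median log2 fold change was -0.08, with 31 of 40 members lower. Leaving out a library cannot make separated groups overlap, so the 11 members without overlap were bound to stay so. No member was added to these 11, whereas the share of all genes rose from 6.09% to 12.2%. Control replicate 2 was also the highest library for the muscle atrophy ligase Trim63, at 485 CPM against 202 to 241 CPM in mutants and 191 and 198 CPM in the other controls. The same held for Nfe2l1, which encodes a transcription factor that drives proteasome genes when proteasome activity falls short. Nfe2l1 stood at 863, 817 and 635 CPM in the mutants, against 712, 1110.5 and 660 CPM in the controls (log2 fold change -0.10, SE 0.24, edgeR adjusted p = 0.966), and its groups overlapped. Without control replicate 2 its log2 fold change was 0.17. The 4 satellite cell markers all had counts in every library. They summed to 39.0 to 53.8 CPM in mutants and to 50.5, 82.4 and 53.6 CPM in control replicates 1, 2 and 3. The high sum in control replicate 2 came mostly from Myod1, at 51.6 CPM there and 11.3 to 22.9 CPM elsewhere. Myf5 was also highest in control replicate 2, at 6.07 CPM. Cdh15 was lowest in that library, at 20.5 CPM, and Pax7 was highest in control replicate 3, at 4.70 CPM. The 5 endothelial markers, also with counts in every library, summed to 253 to 351 CPM in mutants and 225 to 244 CPM in controls, and all 5 had a fold change above 0. All 5 adipocyte markers were higher too, with a median log2 fold change of 0.88, but their sums overlapped (192 to 299 CPM in mutants, 143 to 203 in controls). The 5 fibroblast markers summed to 887, 649 and 5459 CPM in mutant replicates 1, 2 and 3, against 677, 1080 and 4041 CPM in control replicates 1, 2 and 3. The part these moves have in the result was not tested. In males only, with mutant replicate 3 as the single mutant, the median of the 40 members was -0.26.

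**Figure D2:**
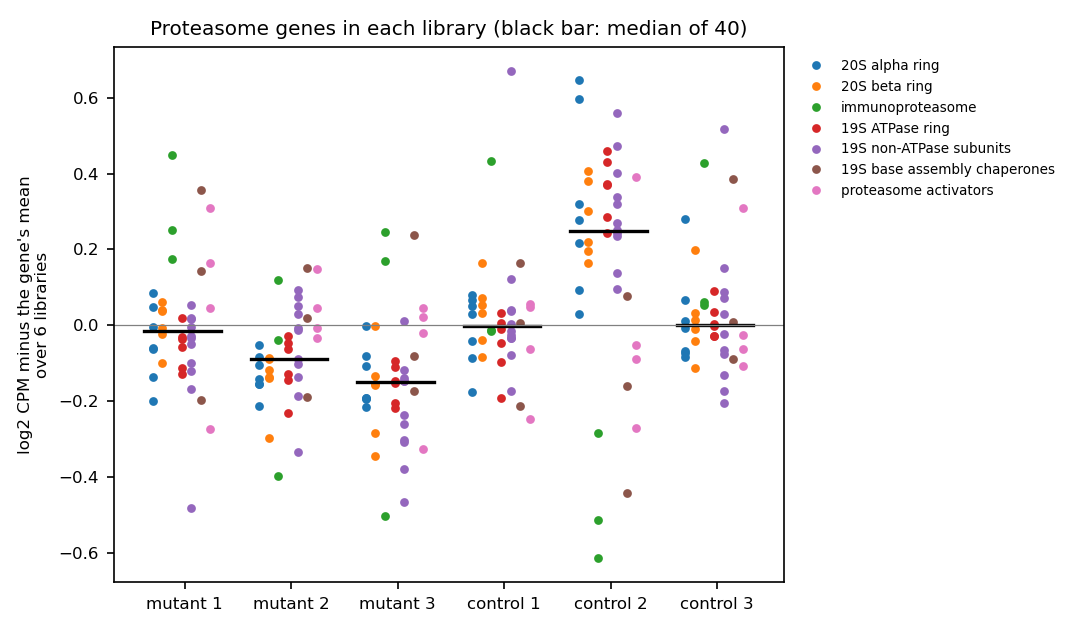
Log2 CPM of each of the 40 proteasome genes minus its own mean over the 6 libraries, by library, coloured by role, with the median of the 40 as a black bar. Control replicate 2 sits highest with a median of 0.25, mutant replicate 3 lowest at -0.15, and the immunoproteasome genes run the other way in control replicate 2.

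To compare levels between genes, CPM was divided by the length of the principal transcript. On this scale the core alpha genes averaged 30.2 to 117 CPM per kb in mutants and 33.4 to 140 in controls. The constitutive beta genes averaged 55.0 to 159 CPM per kb in mutants and 59.9 to 171 in controls, and the ATPases 50.9 to 132 in mutants and 63.2 to 150 in controls. The structural genes of the core and of the regulatory particle thus stood at levels of the same order, although the count of Psmb7 is understated 2.28 times and that of Psmb8 1.91 times in the unstranded matrix. The 3 immunoproteasome genes averaged only 2.33 to 9.13 CPM per kb in mutants and 2.47 to 7.07 in controls, and the chaperones that assemble the base 4.77 to 8.95 in mutants and 5.97 to 8.28 in controls. Among the activators Psme4 was the highest, at 53.2 ± 10.03 CPM per kb in mutants and 66.1 ± 14.8 in controls (SD, n = 3 each).

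**Figure D3:**
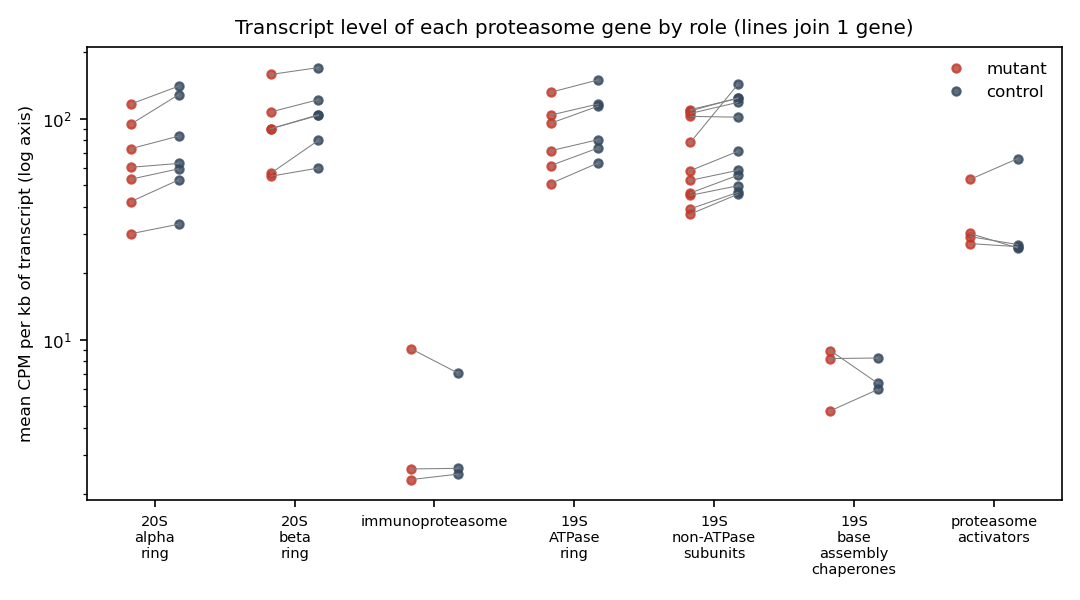
Mean level of each proteasome gene per kb of transcript (CPM per kb, log axis) in mutants and controls, by role, with a line joining the values of 1 gene. The immunoproteasome genes and the base chaperones sit below 10 CPM per kb, and the other genes at 26.1 or more.

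The 7 alpha genes, whose products form the outer rings and the gate of the core, were all lower in the mutants, with a median log2 fold change of -0.19 and 0 past an unadjusted p of 0.05. Psma7 had the lowest fold change of the ring, with 86.7, 85.9 and 87.0 CPM in the mutants, against 102, 156 and 95.1 CPM in the controls. The groups did not overlap, the mutants were tightly spaced and control replicate 2 stood far above the rest (log2 fold change -0.44, SE 0.20, edgeR adjusted p = 0.749). Psma6 stood at 127, 121 and 117 CPM in mutants and 138, 162 and 140 CPM in controls (log2 -0.27, SE 0.13, edgeR adjusted p = 0.756), again without overlap. Psma1 had the smallest difference, at 72.5 ± 3.49 CPM in mutants and 75.5 ± 4.61 CPM in controls (SD, n = 3 each), within the spread of the replicates. Without control replicate 2 the median of the ring was -0.07, and the fold change of Psma7 was -0.19.

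The 6 constitutive beta genes measured here were also all lower, with a median of -0.19, or -0.09 without control replicate 2. Psmb1 encodes a structural, non-catalytic beta subunit. It stood at 110, 96.1 and 92.9 CPM in the mutants, against 132, 154 and 136 CPM in the controls. Every mutant library was below every control, and the gap between the groups was wider than the spread within the mutants. The log2 fold change was -0.49 (SE 0.13, 95% interval -0.81 to -0.18, edgeR unadjusted p = 0.00695, adjusted p = 0.496), and in the authors' deposited table the adjusted p was 0.168. It kept its direction in the 15 alternative settings, from -0.60 to -0.43, and was called in none of them. Psmb6 carries the caspase-like and Psmb7 the trypsin-like activity. Psmb6 averaged 127 ± 6.70 CPM in mutants and 136 ± 14.8 CPM in controls (SD, n = 3 each), and its groups overlapped. Psmb7 stood at 110, 103 and 100.3 CPM in mutants and 118, 128 and 115 CPM in controls, without overlap (log2 -0.20, SE 0.12, edgeR adjusted p = 0.814). Psmb1 relative to Psmb6 (log2 ratio of CPM) was -0.24, -0.31 and -0.49 in the mutants, against 0.10, 0.01 and 0.04 in the controls, a shift of -0.40 that left the groups apart in each library.

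The 3 immunoproteasome genes were split, with 2 lower and 1 higher and a median log2 fold change of -0.01, and Psmb8 changed sign with the scaling (0.021 with upper quartile factors). Psmb10, the induced counterpart of Psmb7, stood at 14.2, 10.1 and 11.7 CPM in mutants, against 10.3, 6.77 and 10.8 CPM in controls (log2 0.37, SE 0.22, edgeR adjusted p = 0.815). Mutant replicate 2 lay below control replicates 1 and 3, so the groups overlapped, and without control replicate 2 the log2 fold change of Psmb10 was 0.19. Psmb9, the induced counterpart of Psmb6, averaged 3.15 ± 0.81 CPM in mutants and 3.34 ± 0.85 CPM in controls, and Psmb8, which carries the induced chymotrypsin-like site, 4.24 ± 0.961 CPM in mutants and 4.27 ± 1.35 CPM in controls (SD, n = 3 each). Both differences were well inside the replicate spread, and the 95% intervals of the log2 fold change, -0.78 to 0.61 and -0.72 to 0.70, were too wide to show that the groups are alike. Set against its constitutive counterpart, Psmb10 over Psmb7 was -3.14 ± 0.20 in mutants and -3.73 ± 0.45 in controls on the log2 scale, while Psmb9 over Psmb6 was -5.36 ± 0.44 in mutants and -5.37 ± 0.46 in controls (SD, n = 3 each). The Psmb10 ratio was lowest in control replicate 2, at -4.24, against -3.52 and -3.41 in control replicates 1 and 3, and every value of it is too high because the unstranded count of Psmb7 was 2.28 times smaller than its strand-matched count. In control replicate 2, the highest library for most of the core, the 3 genes were low, with a median of -0.51 from their means.

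Leukocytes express these subunits at high levels, and their markers were read beside them. The 16 leukocyte markers summed to 223, 126 and 134 CPM in mutant replicates 1, 2 and 3, against 131, 106 and 160 CPM in control replicates 1, 2 and 3, and none was at 0 counts in any library. Mutant replicate 1 was thus the highest and control replicate 2 the lowest library both for the sum of these markers and for Psmb10. Of the marker sum in mutant replicate 1, 103 CPM came from Lyz2. The single markers did not all follow the sum. Ptprc, Cd68 and Csf1r were highest in control replicate 3, and S100a8 and S100a9 in control replicate 1. Of the 15 markers tested, 7 were lower and 8 higher. S100a8 was the 1 marker below an unadjusted edgeR p of 0.05, and it was lower in the mutants (log2 fold change -1.96, edgeR adjusted p = 0.656). Psmb8, like Psmb10, was lowest in control replicate 2, at 2.90 CPM, but highest in control replicate 1, at 5.59 CPM. Psmb9 was highest in control replicate 3, at 4.27 CPM, and lowest in mutant replicate 3, at 2.24 CPM. The part of leukocytes in the Psmb10 values was not tested. Psmb8 and Psmb9 lie on chromosome 17 beside Tap1 and Tap2, the transporter genes that carry peptides to MHC class I, and Tap1 averaged a log2 fold change of -0.05 and Tap2 of -0.01, both with overlapping groups.

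The 6 ATPase genes, whose products form the ring that unfolds substrates and opens the core, were all lower, with fold changes close to each other, from -0.31 (Psmc6) to -0.17 (Psmc5) on the log2 scale. Psmc6 stood at 117, 108 and 117 CPM in mutants and 125, 163 and 134 CPM in controls, without overlap (SE 0.14, edgeR adjusted p = 0.749). Psmc1 stood at 161, 151 and 143 CPM in mutants and 166, 213 and 165 CPM in controls, also without overlap (log2 -0.26, SE 0.15, edgeR adjusted p = 0.814). Without control replicate 2 the fold changes were -0.19 for Psmc6 and -0.12 for Psmc1. Psmc5 averaged 137 ± 6.04 CPM in mutants and 154 ± 19.7 CPM in controls (SD, n = 3 each) with overlapping groups. All 6 genes had their highest level in control replicate 2, and without it the median of the ring was -0.09 in place of -0.22.

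The non-ATPase subunits of the regulatory particle held the largest difference, and 10 of the 11 were lower, with a median of -0.20, or -0.09 without control replicate 2. Psmd8 encodes a lid subunit whose yeast counterpart is the last to join the lid. It stood at 116, 128 and 117 CPM in mutants, against 258, 173 and 232 CPM in controls. The groups stood well apart, and control replicate 2, the highest library for 10 of the 11 genes of this class, was the lowest control for Psmd8. Means were 120.5 ± 6.81 CPM in mutants and 221 ± 43.4 CPM in controls (SD, n = 3 each). On the log2 scale the difference was -0.87 (SE 0.17, 95% interval -1.28 to -0.47). The unadjusted edgeR p was 0.00136 and the adjusted p 0.28. DESeq2 gave an adjusted p of 0.00264 and the authors' deposited table one of 0.00525, and edgeR without a filter on low counts one of 0.0275, so the call depended on the tool and the filter. The direction held in the 15 alternative settings, with log2 fold changes from -1.02 to -0.75 and adjusted p from 0.00264 to 1. In males only, with mutant replicate 3 as the single mutant, the fold change was -0.91.

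The other lid genes differed less. Psmd14, which encodes the deubiquitinase of the lid, stood at 56.3, 57.6 and 57.5 CPM in mutants, against 68.9, 75.4 and 66.6 CPM in controls (log2 -0.30, SE 0.11, edgeR unadjusted p = 0.0313, adjusted p = 0.676). Psmd12, a scaffold subunit of the lid, stood at 115, 108 and 111 CPM in mutants, against 126, 145 and 136 CPM in controls (log2 -0.29, SE 0.12, edgeR unadjusted p = 0.044, adjusted p = 0.701). Neither gene overlapped between the groups. The mutants of Psmd14 were the more tightly spaced, at 57.1 ± 0.71 CPM in mutants, against 70.3 ± 4.61 CPM in controls (SD, n = 3 each). Psmd6 was the single gene of this class that was not lower, at 142 ± 4.19 CPM in mutants and 141 ± 16.9 CPM in controls (SD, n = 3 each). Psmd11, which joins lid and base, stood at 118, 114 and 103 CPM in mutants and 119, 160 and 119 CPM in controls (log2 -0.25, SE 0.16, edgeR adjusted p = 0.832). The highest mutant and the lowest control of Psmd11 nearly touched, and without control replicate 2 its fold change was -0.09.

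Within the lid, Psmd8 was set against its neighbours, with no test on the ratios. The log2 ratio of Psmd8 to Psmd14 was 1.04, 1.16 and 1.03 in the mutants, against 1.90, 1.20 and 1.80 in the controls, and that to Psmd12 was 0.02, 0.25 and 0.08 in the mutants, against 1.03, 0.25 and 0.77 in the controls. Control replicate 2 lay next to mutant replicate 2 in both ratios and just inside the mutant range for Psmd12, while control replicates 1 and 3 lay well above all mutants. Relative to Psmd7, the partner of Psmd14 in the lid, Psmd8 stood at -0.63, -0.45 and -0.33 in the mutants and at 0.56, -0.27 and 0.36 in the controls.

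**Figure D4:**
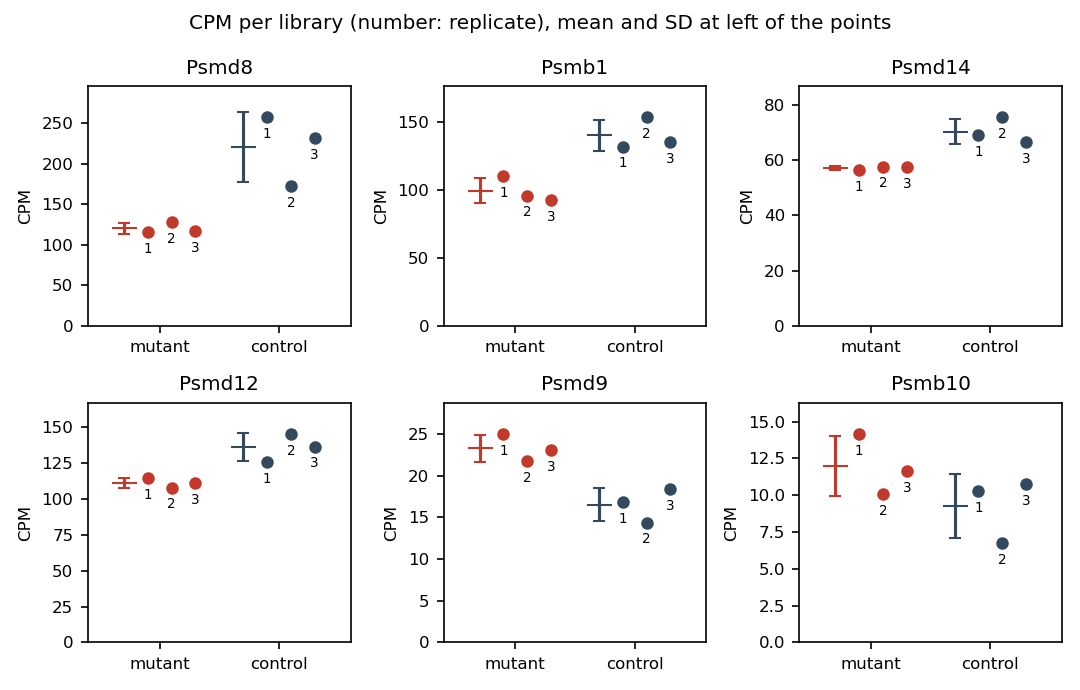
CPM of 6 proteasome genes in each mutant and control library, numbered by replicate, with the mean and SD (n = 3) to the left of the points. Psmd8, Psmb1, Psmd14 and Psmd12 are lower in every mutant than in every control, Psmd9 is higher in every mutant, and Psmb10 overlaps.

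The 3 chaperones that assemble the base of the regulatory particle did not share a direction. Psmd9 stood at 25.0, 21.7 and 23.1 CPM in mutants, against 16.9, 14.4 and 18.4 CPM in controls. All mutants were above all controls, and the log2 fold change was 0.49 (SE 0.14, 95% interval 0.16 to 0.82, edgeR unadjusted p = 0.00957, adjusted p = 0.534). In the authors' deposited table its adjusted p was 0.289. The direction held in all 15 alternatives, from 0.40 to 0.57, and the gene was called in none. Psmd5, another chaperone of the base, stood at 20.4, 20.5 and 22.1 CPM in mutants and 23.5, 24.7 and 30.5 CPM in controls (log2 -0.32, SE 0.14, edgeR adjusted p = 0.734). Psmd9 over Psmd5 was 0.30, 0.08 and 0.06 in mutants and -0.48, -0.78 and -0.73 in controls as a log2 ratio of CPM, without overlap. The 2 transcripts differ in length, so the sign of this ratio does not say which gene stood higher. Psmd10, which encodes gankyrin, averaged 11.8 ± 1.28 CPM in mutants and 11.8 ± 1.34 CPM in controls (SD, n = 3 each).

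The activators cap the core in place of the regulatory particle. Psme1 and Psme2 form the cap that interferon-gamma induces, Psme3 its nuclear relative, and Psme4 a large single-chain nuclear activator. Psme1 stood at 38.5, 30.4 and 32.1 CPM in mutants, against 32.3, 25.8 and 28.8 CPM in controls, with overlap (log2 0.22, SE 0.15, edgeR adjusted p = 0.837). Psme2 stood at 30.3, 26.9 and 27.5 CPM in mutants, against 25.9, 25.4 and 26.6 CPM in controls. Its groups nearly touched, and the log2 fold change was 0.12 (SE 0.11, edgeR adjusted p = 0.897). Psme3 averaged 72.6 ± 1.90 CPM in mutants and 70.4 ± 3.03 CPM in controls (SD, n = 3 each). Psme4 spread widely, at 313, 420 and 302 CPM in mutants and 319, 498 and 470 CPM in controls (log2 -0.31, SE 0.22, edgeR adjusted p = 0.841), and its fold change was -0.19 without control replicate 2.

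The 250 bases before the transcription start of the genes with the clearest group separation are shown to let their promoters be compared, as RefSeq gives them for GRCm38.p6, 5′ to 3′ on the gene's strand, with matches to the motifs named below in capitals. Psmd8 lies on the minus strand at chr7:29180674-29180923, Psmd12 on the plus strand at chr11:107479278-107479527, Psmd14 on the plus strand at chr2:61711444-61711693 and Psmd9 on the plus strand at chr5:123227940-123228189.
Psmd8: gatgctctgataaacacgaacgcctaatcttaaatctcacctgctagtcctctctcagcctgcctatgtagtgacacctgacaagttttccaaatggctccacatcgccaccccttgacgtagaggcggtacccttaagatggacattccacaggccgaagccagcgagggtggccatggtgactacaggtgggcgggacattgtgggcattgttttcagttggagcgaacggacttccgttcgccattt
Psmd12: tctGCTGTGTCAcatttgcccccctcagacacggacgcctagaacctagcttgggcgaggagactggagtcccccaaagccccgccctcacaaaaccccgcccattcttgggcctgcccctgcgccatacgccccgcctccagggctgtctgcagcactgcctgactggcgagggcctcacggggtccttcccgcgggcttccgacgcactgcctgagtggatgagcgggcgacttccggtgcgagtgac
Psmd14: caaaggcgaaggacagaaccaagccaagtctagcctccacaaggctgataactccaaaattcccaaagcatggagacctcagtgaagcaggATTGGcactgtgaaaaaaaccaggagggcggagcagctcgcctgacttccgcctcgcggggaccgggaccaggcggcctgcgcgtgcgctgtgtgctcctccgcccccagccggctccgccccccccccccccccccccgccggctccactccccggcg
Psmd9: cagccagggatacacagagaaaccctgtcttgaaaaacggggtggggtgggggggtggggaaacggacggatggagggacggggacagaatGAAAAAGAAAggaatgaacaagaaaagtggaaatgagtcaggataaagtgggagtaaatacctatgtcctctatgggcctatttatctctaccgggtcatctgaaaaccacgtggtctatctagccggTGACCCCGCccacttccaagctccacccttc
The RefSeq table matched 34 of the 40 members, and Psmb1, Psmb2, Psmb7, Psmc3, Psmd3 and Psmd7 are named only. The motifs were searched on both strands of the 250 bases, with overlaps allowed. A gene was counted if any of its promoters held the motif. The antioxidant response element core TGACNNNGC, to which Nfe2l1 and Nfe2l2 bind, was found in 4 of 34 members (11.8%: Psmb6, Psmc6, Psmd12 and Psmd9). It was found in 11.5% of the 27025 gene symbols with a promoter. CCAAT was found in 13 of 34 (38.2%) and in 37.5% of all symbols. The core of the interferon-stimulated response element (GAAA and GAAA with 2 free bases between) was found in 3 of 34 (8.8%: Psmb3, Psmd4 and Psmd9) and in 3.5% of all symbols. The interferon-gamma activated sequence TTCNNNGAA was found in 1 of 34 (2.9%: Psmb8) and in 8.1% of all symbols. Psmd9, the higher member, held both TGACNNNGC and the interferon-stimulated core, Psmd12 held TGACNNNGC, Psmd14 held CCAAT on the opposite strand, and Psmd8 held none of the 4.

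Genes outside the family that build, regulate or feed the proteasome were read from 6 lists of 56 genes. Of these, 34 were lower and 22 higher, with a median log2 fold change of -0.05, where 50.2% of all genes tested were lower. With edgeR 0 were called, against 0.199% of all genes. At an unadjusted edgeR p below 0.05 there were 7 of the 56 (4 lower, 3 higher), against 6.94% of all genes (3.69% lower, 3.25% higher). DESeq2 called 1 of the 56, against 1.18% of all genes, and this was Psmg4. The gene encodes a chaperone that, with the product of Psmg3, starts the alpha ring. Psmg4 stood at 3.38, 2.76 and 4.68 CPM in mutants, against 7.77, 8.13 and 6.53 CPM in controls. The groups did not overlap, and the log2 fold change was -1.05 (SE 0.24, edgeR unadjusted p = 0.00296, adjusted p = 0.361; DESeq2 adjusted p = 0.0108). The authors' deposited table gave it an adjusted p of 0.0113. With sex as a covariate, which sets mutant replicate 3 against the controls, the log2 fold change of Psmg4 was -0.68. Psmg3, its partner, averaged a log2 fold change of 0.14 with overlapping groups, Psmg1 of 0.06 and Psmg2 of -0.14. Pomp, which guides the beta ring, stood at 81.3, 73.3 and 73.2 CPM in mutants and 82.0, 102 and 83.2 CPM in controls (log2 -0.23, edgeR adjusted p = 0.814), and the inhibitor gene Psmf1 had a log2 fold change of 0.10.

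Partners of the regulatory particle lay on the same side as its subunits, with 10 of 13 lower and a median of -0.18. Usp14, a deubiquitinase that binds the base, stood at 47.5, 48.0 and 44.7 CPM in mutants, against 54.7, 58.7 and 57.8 CPM in controls (log2 -0.29, SE 0.11, edgeR adjusted p = 0.677), and Txnl1, a thioredoxin-like partner, at 70.6, 67.9 and 63.4 CPM in mutants and 75.1, 94.4 and 84.3 CPM in controls (log2 -0.33, SE 0.13, edgeR adjusted p = 0.687). Neither gene overlapped between the groups. Of the 10 genes that control proteasome genes, 6 were higher. Nfe2l2, the oxidative stress factor, stood at 47.5, 44.8 and 40.03 CPM in mutants, against 34.8, 35.8 and 30.5 CPM in controls, without overlap (log2 0.39, SE 0.13, edgeR unadjusted p = 0.0183, adjusted p = 0.618). Ngly1, which deglycosylates the Nfe2l1 protein, had a log2 fold change of -0.29 (edgeR adjusted p = 0.754).

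Among the 9 genes of ubiquitin, E1 enzymes and the p97 segregase, 6 were lower. Ufd1, a cofactor of p97, had a log2 fold change of -0.27 (edgeR adjusted p = 0.701). Of the 8 ubiquitin ligases of atrophy, 6 were lower. Fbxo30 stood at 37.0 CPM in control replicate 2 and at 17.7 to 19.3 CPM in the other 5 libraries, and Fbxo21 had a log2 fold change of 0.34 (edgeR unadjusted p = 0.0406, adjusted p = 0.695). The 10 genes of interferon-gamma signalling and antigen processing were split 5 to 5 with 0 below an unadjusted p of 0.05. In that list Ifngr2 stood at a log2 fold change of 0.34 (edgeR adjusted p = 0.805) and Tapbp at 0.22 (edgeR adjusted p = 0.832).

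Counting bore on a few members. Reads on the strand opposite to the gene made up 0.0563% to 7.65% of the strand-assigned reads of the members, the highest being Psmb9, which overlaps Tap1 on the other strand, and 0.135% for Psmd8, 0.125% for Psmb1 and 0.3% for Psmd9. The deposited matrix is unstranded, and for 3 members the strand-matched count was more than 1.1 times larger: 2.28 times for Psmb7, which overlaps Nek6, 1.91 times for Psmb8 and 1.12 times for Psma4, whose levels above are understated to that extent. In the strand-matched count Psmb7 kept a log2 fold change of -0.19. Near-identical copies (95% identity over at least 100 bases of a GENCODE M21 transcript of another gene, overlapping genes included) were found for 13 of the 40 members, and their counts are uncertain for that reason. None was found for Psmd8, Psmb1, Psmd9, Psmd12 or Psmd14, though Psmd9 overlaps Hpd on the opposite strand. Psma3 had the most, 8, though some of these matched over few bases, such as Olfr361 over 102 (3.6% of the transcript). Its processed pseudogene Gm13835, identical over 665 bases, stood at 1.35, 1.05 and 3.41 CPM in mutants, against 6.69, 3.67 and 4.12 CPM in controls (log2 -1.31, SE 0.49, edgeR adjusted p = 0.667), while Psma3 itself had 145, 151 and 159 CPM in mutants and 150.3, 163 and 194 CPM in controls.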

How the data were processed

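Poly(A)-selected RNA of 6 gastrocnemius muscles was read as directional paired-end libraries, per the labels' protocols. Raw counts of read pairs were deposited by the authors for each gene. They also deposited a DESeq2 table that gives each gene a mean normalized signal, a log2 fold change, a Wald score and p-values. Per the submitters' processing notes, the tools included STAR 2.7.11b and DESeq2 1.50.2 (R 4.5.2), and the build was GRCm39. No annotation release is given in these sources. Entries that name no gene (18.5% to 22.3% of read pairs) were left out.

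The unstranded counts were tested with edgeR 4.0.16 (R 4.3.3): TMM scaling, low genes removed by filterByExpr (minimum count 10), a quasi-likelihood test (robust) with group as the single term, and p-values adjusted by Benjamini-Hochberg over 15589 genes. DESeq2 1.42.0 was an alternative, beside other scalings, no filter, sex as a covariate, males only, strand-matched counts, a replicate block and each library left out. The scripts were tested on simulated data. Symbols matched 52029 of 57010 IDs. Transcript lengths, overlaps and copies (blastn 2.17.0) came from GENCODE M21 on GRCm38, an older build than the files', and none of its coordinates are printed. Promoters came from RefSeq (GRCm38.p6).

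Members and gene lists were chosen with earlier results of these data known. Named genes were the 6 members with the smallest p, the highest and lowest fold change of each role, the immunoproteasome subunits with their counterparts, the activators, members without overlap, Nfe2l1, the core assembly chaperones and the 2 smallest p of each pathway list. The result of 1 pathway gene is not reported here. A few more (Trim63, Psmd7, Psma3, Tap1, Tap2) were named after their values were seen. Intervals and p-values set the difference between the groups against the spread between animals of a group. Both tools estimate that spread with help from the other genes tested.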

Additional observations from a re-analysis of the deposited data

How the results depend on the processing

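With 3 animals a group, the calls moved with the settings more than the directions did. The number of genes called (31) was 79 without a filter on low counts, 184 with DESeq2, 0 with sex as a covariate (882 at an unadjusted p below 0.05), 0 in males only (594 unadjusted), both of which set mutant replicate 3 against the controls, and 6 to 49 when 1 library was left out (49 without control replicate 2, 7 without mutant replicate 1 and 6 without mutant replicate 2). Proteasome genes called (0) were 1 without a filter and 1 with DESeq2, Psmd8 in both, and pathway genes called (0) were 1 with DESeq2, Psmg4. The median log2 fold change of the 40 members stayed between -0.26 and -0.08 over the 15 alternatives, the value nearest to 0 being without control replicate 2. Correlations by replicate number were 0.227, -0.0572 and 0.22 for replicates 1, 2 and 3, with 1 and 3 closest to their own number. With 3 animals a group they cannot show whether the replicate numbers pair the samples. A replicate block gave 11 genes called, 0 members called and a median of -0.17.

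Of 23 named members 20 kept their direction in all 15 alternatives, and of 17 named pathway genes 15. Psmb8 turned to 0.20 in males only and with sex as a covariate, 0.065 with strand-matched counts, 0.026 without scaling factors, 0.021 with upper quartile scaling and 0.013 with the replicate block, and ran from -0.22 to 0.23 with 1 library left out. Psmg1 turned to -0.059 in males only and to -0.062 with sex as a covariate, and ran from -0.011 to 0.11 with 1 library left out. With 1 library left out Psmb9 ran from -0.23 to 0.13, Psmd6 from -0.087 to 0.088 and Nfe2l1 from -0.25 to 0.17. The cause was not tested. Members without overlap on the lower side (11) were 20 without control replicate 1 and 18 without mutant replicate 1, a count added after seeing the data. The share of all genes also moved, to 12.4% and 8.2% in these settings, against 6.09% with all libraries. Dysf kept a log2 fold change of -2.86 to -2.36 but was not called in 5 alternatives: males only, the sex covariate and each mutant left out. The immunoproteasome subunits Psmb8 and Psmb9 rest on 114 to 224 and 88 to 168 counts a library, which limits their precision.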
